A study of Homo sapiens with 47 samples.

Results

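The 4 genes of the FOS family, FOS, FOSB, FOSL1 and FOSL2, were followed through all the open chromatin, H3K27ac and H3K9me3 lists made from 451Lu and WM983B human melanoma cells. Their loci were taken as fixed hg19 windows on chromosome 14 from 75.7 to 75.8 Mb (FOS), chromosome 19 from 45.95 to 46.0 Mb (FOSB), chromosome 11 from 65.64 to 65.69 Mb (FOSL1) and chromosome 2 from 28.58 to 28.66 Mb (FOSL2). Every listed interval that overlaps a window is a member. There were 737 such intervals of 2305810 in all, namely 625 ATAC-seq peaks, 99 H3K27ac peaks, 10 H3K9me3 islands and 3 intervals of a comparison table labelled RRR.

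ATAC-seq marks open chromatin by where the transposase Tn5 can cut. H3K27ac ChIP-seq marks active promoters and enhancers, and H3K9me3 ChIP-seq marks heterochromatin. Cells resistant to the BRAF inhibitor vemurafenib were set against parental cells in each line. In 451Lu, cells over-expressing c-JUN and c-FOS (AP1) were set against vector cells, and cells with a short hairpin RNA against p150 (shp150) against NT control cells. Cells with both changes (shp150_AP1) were set against cells with vector and NT control (vector_NT). These groups had 2 ATAC-seq libraries each. H3K9me3 was profiled in 2 libraries each of resistant, parental, shp150_AP1 and vector_NT 451Lu cells, and H3K27ac had 1 library with a file for resistant and parental cells of either line. Neither the number of clones behind a resistant line nor the parent of the engineered cells (sensitive or resistant) is stated in the labels, and whether replicates came from separate cultures is not stated either, so their spread can be that of repeat measurements.

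FOS proteins carry a leucine zipper and bind DNA as AP-1 dimers with JUN proteins. FOS and FOSB are immediate early genes that growth factor signals through the kinase ERK switch on within minutes, while FOSL1 (FRA1) and FOSL2 (FRA2) are induced later and lack the strong transactivation domain of FOS. BRAF inhibitors act on the pathway that ends in ERK, and FOSL1 is known from melanoma as a gene of invasive, poorly differentiated cells.

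ATAC-seq lists held 42898 to 147988 peaks, and the 8 lists of resistant, parental, shp150_AP1 and vector_NT 451Lu cells were longer than the 8 of AP1, vector, shp150 and NT cells, so a region missing from a shorter list is not shown to be closed. The smallest score, a value per peak from the authors' caller whose scale is not given, lay between 2.0 and 2.04 in 451Lu lists and at 1.30 to 1.32 in WM983B lists. In WM983B the libraries grouped by replicate number rather than by label. The covered bases shared by the resistant and parental library made up 0.578 of their joint coverage for number 1 and 0.609 for number 2, against 0.509 between the 2 resistant libraries and 0.51 between the 2 parental libraries. WM983B results are therefore also given within each number.

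The promoters of 3 members are printed to show how 2 short elements are placed in FOS, FOSB and FOSL2. Each line holds the 250 bases before the annotated start, from RefSeq on GRCh38.p14, plus strand, with TGACG (part of the cAMP response element, which CREB binds) and TATAAA (a core element bound by TFIID) in capitals, both searched on either strand.
FOS, chr14:75278578-75278827: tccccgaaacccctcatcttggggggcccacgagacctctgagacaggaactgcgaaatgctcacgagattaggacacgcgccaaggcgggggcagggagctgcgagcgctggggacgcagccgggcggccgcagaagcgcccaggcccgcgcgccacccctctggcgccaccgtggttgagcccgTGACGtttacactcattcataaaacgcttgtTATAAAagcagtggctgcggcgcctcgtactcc
FOSB, chr19:45467746-45467995: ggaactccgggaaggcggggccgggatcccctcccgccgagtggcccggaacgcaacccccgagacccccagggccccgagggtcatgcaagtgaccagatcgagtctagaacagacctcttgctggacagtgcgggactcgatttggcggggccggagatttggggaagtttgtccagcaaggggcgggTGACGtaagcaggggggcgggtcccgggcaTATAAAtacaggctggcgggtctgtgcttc
FOSL2, chr2:28392608-28392857: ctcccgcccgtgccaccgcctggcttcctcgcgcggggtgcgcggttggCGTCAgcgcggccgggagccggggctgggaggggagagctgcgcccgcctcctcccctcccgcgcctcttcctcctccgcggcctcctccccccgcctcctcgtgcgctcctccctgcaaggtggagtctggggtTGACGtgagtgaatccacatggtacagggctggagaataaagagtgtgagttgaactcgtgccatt
TGACG began at position -64 in FOS, -60 in FOSB and -66 in FOSL2, where -1 is the last base before the start, and FOSL2 held it once more on the other strand at -201. TATAAA began at -33 in FOS and at -30 in FOSB, and its letters are not in the 250 bases printed for FOSL2. Of 35116 promoters of the same length, 21.2% held TGACG and 10.7% held TATAAA. The full cAMP response element TGACGTCA, which contains TGACG, was in none of the 3 promoters and in 1.65% of all, and the AP-1 site TGACTCA was in none of the 3 and in 4.2% of all. These coordinates are of another build than the peaks and were not matched to them, so no peak is called a promoter below.

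All 4 loci were densely open. The 20 ATAC-seq lists merged into 57 regions in the windows, 20 at FOS, 12 at FOSB, 11 at FOSL1 and 14 at FOSL2. Averaged over the libraries, peaks covered 3.97% of the FOS window, 7.57% of the FOSB window, 8.17% of the FOSL1 window and 3.07% of the FOSL2 window. These shares were above 96.7%, 99.7%, 99.8% and 91.0% of genome tiles of the same width that held any peak. All 20 libraries listed 8 regions, 14.0% of the 57, against 11.7% of 208860 regions across the chromosomes. They lay at FOS (2), FOSB (2), FOSL1 (3) and FOSL2 (1).

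No peak was assigned to a gene, so gene names here and below stand for the windows. Each window held at least 1 open site in either line and after each engineered change. At FOS the best-scoring one, chr14:75725390-75726510, scored 62.8 and 82.9 in resistant and 56.5 and 69.8 in parental 451Lu cells. In WM983B it scored 29.0 and 36.3 in resistant and 23.7 and 33.9 in parental cells. A broader one at chr14:75760664-75762981 scored 43.8 and 48.9 in resistant and 48.8 and 39.9 in parental 451Lu cells, so their ranges overlapped. The FOSB counterpart, chr19:45958862-45959803, scored 50.9 and 39.6 in resistant and 45.6 and 40.7 in parental 451Lu cells. FOSL2 had its constant region at chr2:28614804-28616010, with 23.3 and 32.8 in resistant and 26.1 and 30.3 in parental 451Lu cells. FOSL1 scored lower. Its 3 constant regions began at 65655502, 65666664 and 65683006 on chromosome 11 and had scores of 4.11 to 23.8 over the 20 lists. The one at chr11:65683006-65683866 had 8.83 and 20.1 in resistant and 6.54 and 5.35 in parental 451Lu cells.

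**Figure D1:**
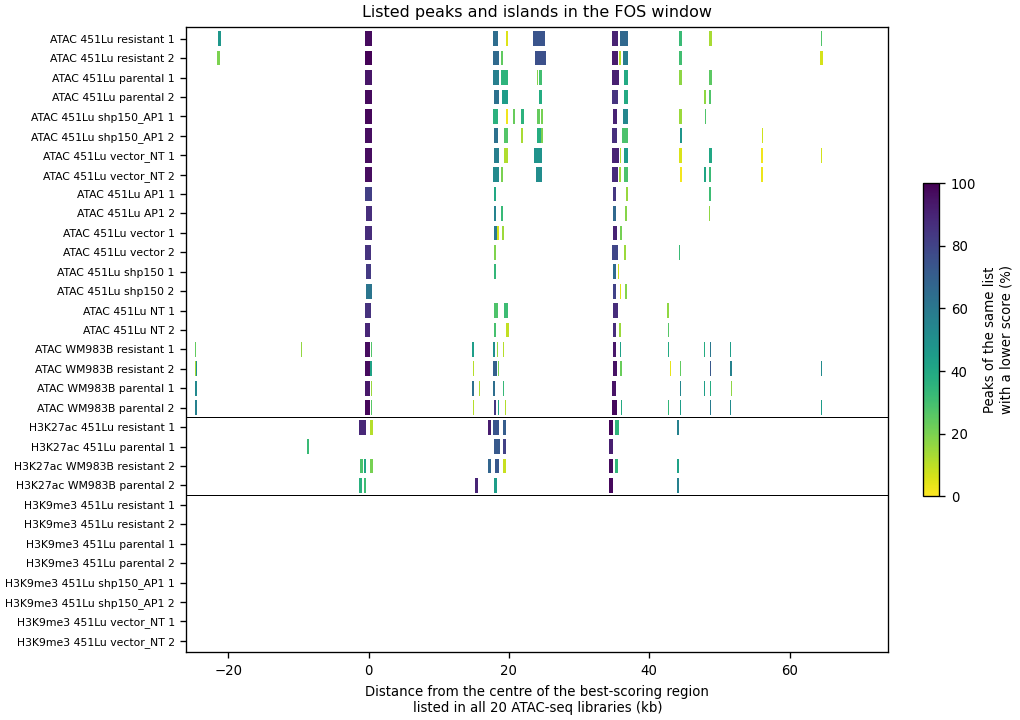
Peaks and islands listed in the FOS window, 1 row per library, with resistant or engineered cells above their controls and ATAC-seq, H3K27ac and H3K9me3 separated by lines; the x axis is the distance in kb from the centre of the best-scoring region of all 20 ATAC-seq libraries, and the colour is the percentage of peaks of the same list with a lower score. The 2 regions listed in all 20 libraries run down the panel at 0 and near 35 kb, and the 8 H3K9me3 rows are empty.

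Resistant 451Lu cells listed more open chromatin than parental cells at FOSL2 and FOS, an overlapping amount at FOSB and less at FOSL1. At FOSL2 peaks covered 4402 and 4349 bp in resistant and 2994 and 3075 bp in parental libraries, a difference of 1341 bp between the means. The FOS window had 7167 and 6809 bp covered in resistant and 5750 and 5045 bp in parental libraries. Groups did not overlap at either gene, which also held, in the same direction, for 32.7% of 80 kb tiles (the width of FOSL2) and 33.8% of 100 kb tiles (the width of FOS) that held a peak. FOSB had 4963 and 5312 bp in resistant and 4839 and 5339 bp in parental libraries, which overlap. FOSL1 went the other way, with 5048 and 5092 bp in resistant and 5371 and 5263 bp in parental libraries. The groups did not overlap there either, as in 20.7% of 50 kb tiles in that direction. Over the 4 windows the sum was 21571 ± 12.7 bp in resistant and 18838 ± 164 bp in parental cells (SD, n = 2 each). An exact two-sided permutation test of 2 libraries against 2 cannot give a p below 0.333, which is the p of this sum, so none of the coverage differences can pass 0.05. The resistant lists were also longer across the chromosomes, at 47.7 and 50.3 Mb covered against 45.6 and 46.3 Mb in parental lists, and the difference was 1839 bp with lists of equal length.

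**Figure D2:**
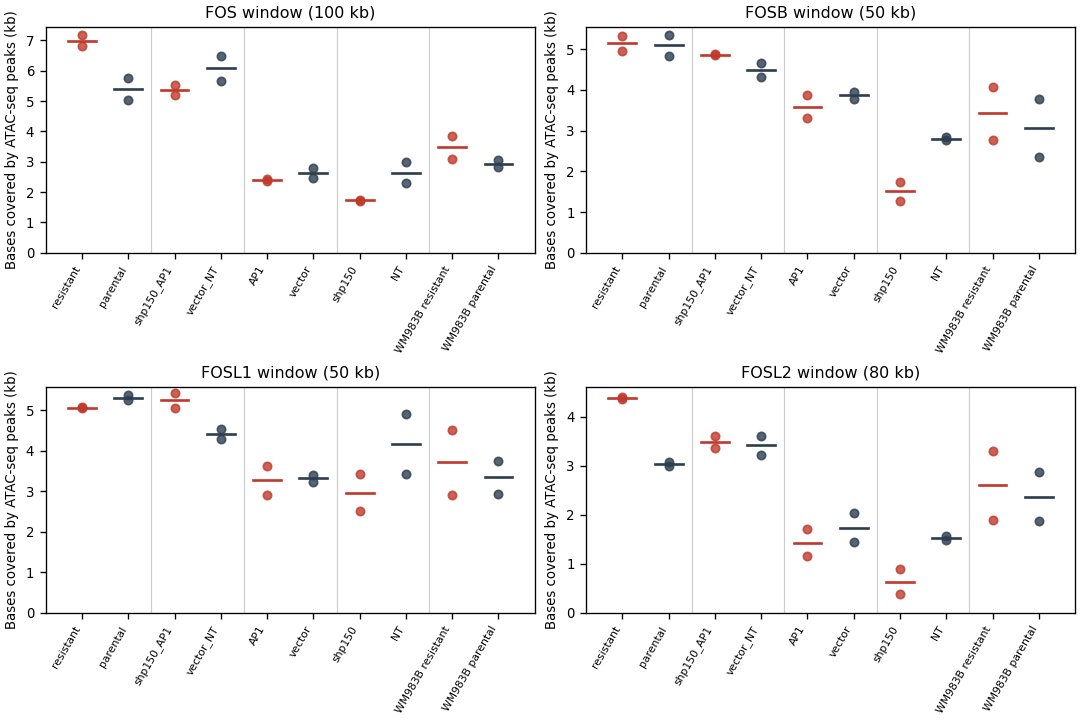
Bases of each window covered by ATAC-seq peaks (kb), 1 point per library and a line at the mean of 2 libraries, with resistant or engineered cells (red) left of their control (dark); groups named without a line are 451Lu cells. In 451Lu the resistant points lie above the parental points at FOS and FOSL2, and the shp150 points lie below the NT points at FOS, FOSB and FOSL2.

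A region was called gained when both libraries of the resistant or engineered cells listed it and neither of their controls did, and lost when the pattern was turned round. In resistant 451Lu cells 6 of the 40 regions in the windows were gained (15.0%) and 1 was lost (2.5%), while 23 were listed in all 4 libraries. Across all chromosomes 9.79% of regions were gained and 3.96% were lost, and no such share was taken for regions listed in all 4 libraries. Nothing particular to the windows is read from these counts. FOSL2 held 3 of its 10 regions gained, FOS 2 of 11, FOSB 1 of 9 and FOSL1 none of 10.

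The gained FOSL2 regions were spread over the window. The region at chr2:28582099-28582532 scored 13.2 and 16.2 in resistant cells, which placed it above 49.8% and 57.6% of the peaks of those lists. At chr2:28589515-28589927 the scores were 10.5 and 7.54, and at chr2:28629556-28629929 they were 6.40 and 7.38. Each of these 3 places was also listed in all 4 WM983B libraries, resistant and parental, so they were open in the other line without a difference by label. The first was also listed in both shp150_AP1 libraries and 1 vector_NT library, at 3.93 to 4.90. The second was listed in shp150_AP1 replicate 1 at 13.6, and at 4.10 to 4.38 in both vector_NT libraries, 1 AP1 library and 1 vector library. The third was in no other 451Lu library, and no shp150 or NT library listed any of the 3.

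The highest-scoring FOSL2 difference fell just outside the rule for a gain. The region chr2:28631806-28632535 scored 23.2 and 33.0 in resistant 451Lu cells, above 70.8% and 82.0% of the peaks of those lists. Parental replicate 1 did not list it, and parental replicate 2 listed it at 3.66, above 1.8% of its list. With peaks under a score of 5 left out it counted as gained. In shp150_AP1 cells only replicate 2 listed it, at 6.30, and in vector_NT cells only replicate 1, at 4.69. Among WM983B libraries, resistant replicate 1 had 6.64 and the parental libraries had 5.64 and 9.10. An H3K27ac peak lay 29 bp beyond its end, at chr2:28632565-28633014, with a score of 46.3 in resistant 451Lu cells, above 95.6% of that list. The H3K27ac lists of parental 451Lu cells and of both WM983B libraries had no peak there. Open chromatin and the active mark thus stood side by side at this place in resistant 451Lu cells.

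**Figure D3:**
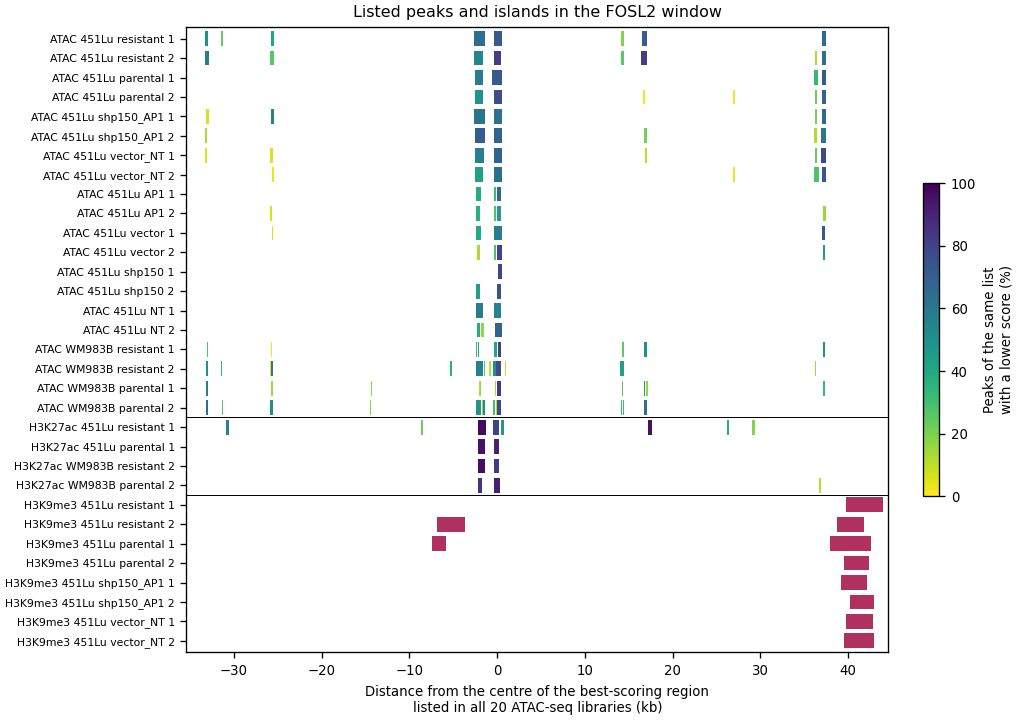
Peaks and islands listed in the FOSL2 window, drawn as for FOS, with x in kb from the centre of the best-scoring region of all 20 ATAC-seq libraries. The region about 17 kb to the right is dark in both resistant 451Lu rows and pale or missing in the parental rows, with a dark H3K27ac peak beside it in resistant 451Lu cells alone, and H3K9me3 islands fill the right end in all 8 libraries.

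At FOS the gained regions were chr14:75704427-75704889, with 12.4 and 6.52 in resistant cells, and chr14:75790311-75790656, with 7.88 and 4.58. The first of these places was listed in no other library of the 20. The second was also listed in vector_NT replicate 1 at 4.6, and in WM983B resistant replicate 2 at 9.45 and parental replicate 2 at 6.31. It did not count as gained at a score of 5 or more or with lists of equal length. The larger FOS contrast was again one of score. The region chr14:75749363-75751182 scored 25.4 and 27 in resistant cells, above 74.0% and 75.7% of their lists, and 8.46 and 10.5 in parental cells, above 30.4% and 38.4% of theirs. It also stood at 6.82 and 8.89 in shp150_AP1 cells and at 12.9 and 13.8 in vector_NT cells, and it was listed in none of the 8 shorter 451Lu lists and none of the 4 WM983B lists. Other shared regions scored lower in both resistant libraries than in both parental ones. At chr14:75744812-75745923 the scores were 4.23 and 7.08 in resistant and 9.52 and 12.43 in parental cells. In the FOSB window chr19:45972229-45973298 had 7.37 and 9.24 against 14.79 and 20.72. In the FOSL2 window chr2:28652376-28652926 had 20.42 and 19.4 against 25.42 and 24.54. Scores and ranks of separate lists are not on 1 scale, so these values describe the lists and are no test of a change.

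FOSB gained chr19:45978236-45978769, with 7.05 and 6.90 in resistant cells and no listing in any other library. FOSL1 lost chr11:65652128-65652445, which scored 3.50 and 3.76 in parental cells, above 1.7% and 4.4% of those lists. That FOSL1 place was among the weakest of the parental peaks, yet all 4 WM983B libraries listed it.

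Few regions followed the label in WM983B cells. Of 64 regions in the windows 2 were gained and 1 was lost, beside 1.47% gained and 1.22% lost across the chromosomes. The gains were chr19:45953533-45953742 at FOSB, with 2.56 and 2.77 in resistant cells, and chr11:65658694-65659038 at FOSL1, with 4.41 and 5.48. The FOSL1 one lies inside a wider place that 19 of the 20 libraries listed. The loss was chr2:28600968-28601139 at FOSL2, with 3.64 and 3.75 in parental cells. Within replicate number 1, 9 of 50 regions were listed in the resistant library alone and 6 in the parental library alone, beside 20.4% and 18.3% of all regions. Within number 2 the counts were 11 and 5 of 58, beside 18.1% and 17.4% of all regions. Covered bases followed the number as well, with 10681 and 15746 bp over the 4 windows in resistant libraries 1 and 2 and 9986 and 13455 bp in parental libraries 1 and 2 (exact permutation p = 0.667). The resistant library was thus the higher one within each number, with an exact permutation p of 0.5 when exchange was kept within numbers, the smallest that this allows. Leaving out 1 library leaves the numbers unbalanced, and the difference of 1493 bp turned to -241.5 bp without parental replicate 1 and to -1039.5 bp without resistant replicate 2. In the FOS window peaks covered 3106 and 3844 bp in resistant and 2812 and 3044 bp in parental libraries. Groups did not overlap there, as in 14.7% of 100 kb tiles in that direction, and they overlapped at FOSB, FOSL1 and FOSL2.

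The 4 WM983B libraries all listed 3 FOS regions that none of the 16 libraries of 451Lu did, which was 5.26% of the regions in the windows and 4.7% of all regions. They were chr14:75701176-75701476, chr14:75740757-75740992 and chr14:75777447-75777794, with scores of 2.69 to 10.04. No region of the windows was listed in all 16 libraries of 451Lu and in none of WM983B.

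H3K27ac was listed more widely in resistant than in parental cells over the 4 windows of either line, with 1 library a group and so no replicate check. In 451Lu 14149 bp were covered in resistant and 7592 bp in parental cells, and in WM983B 12582 bp in resistant and 9508 bp in parental cells. Of 33 regions in 451Lu 17 were in the resistant list only (51.5%, beside 50.3% of all regions), 2 in the parental list only (6.06%, beside 19.9%) and 14 in both. In WM983B, 13 of 35 were in the resistant list only (37.1%, beside 21.2%) and 5 in the parental list only (14.3%, beside 43.8%). List length ran in opposite directions in the lines, with 51710 peaks in resistant and 32304 in parental 451Lu cells, and 36022 in resistant and 50336 in parental WM983B cells. In WM983B, whose resistant list was the shorter one, FOS had 4 regions in the resistant list only and 1 in the parental list only, and FOSB had 6 and 0. FOSL1 had 3 and 3, and FOSL2 had 0 and 1, with 1431 bp covered in resistant and 1419 bp in parental cells.

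Of the 42 H3K27ac regions in the windows 6 (14.3%) were listed in both resistant libraries and neither parental one, beside 4.83% of all regions, and none was listed in both parental libraries and neither resistant one, beside 3.17%. This count was taken after the values had been seen. FOS held 3 of the 6, FOSB 2 and FOSL1 1. The strongest was chr14:75742962-75743390 at FOS, at 31.7 in resistant 451Lu cells (above 91.8% of the list) and 11.4 in resistant WM983B cells (above 67.6%). The other 5 scored 4.07 to 11.5. At FOSL2 the 6 regions found in the resistant 451Lu list only were in neither WM983B list.

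The highest H3K27ac scores of the 4 loci were at FOSB. The peak chr19:45970621-45971241 scored 156 in resistant and 109 in parental 451Lu cells, and 153 in resistant and 75.3 in parental WM983B cells, above 98.8% to 99.8% of each list. Hardly any open chromatin was listed inside it, as its 2 overlapping ATAC-seq regions, of 82 bp each, came from resistant WM983B replicate 2 alone. At FOS the peak chr14:75760140-75760786 scored 87.5 in resistant and 32.0 in parental 451Lu cells, but 49.95 in resistant and 57.8 in parental WM983B cells, so the order of the scores differed between the lines. FOSL1 had its highest H3K27ac score in resistant 451Lu cells at chr11:65639781-65640566, with 58.2, against 12.3 in parental 451Lu cells. FOSL2 had its highest at chr2:28613201-28614099, with 60.9 in resistant and 46.6 in parental 451Lu cells, and 48.1 in resistant and 19.8 in parental WM983B cells.

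**Figure D4:**
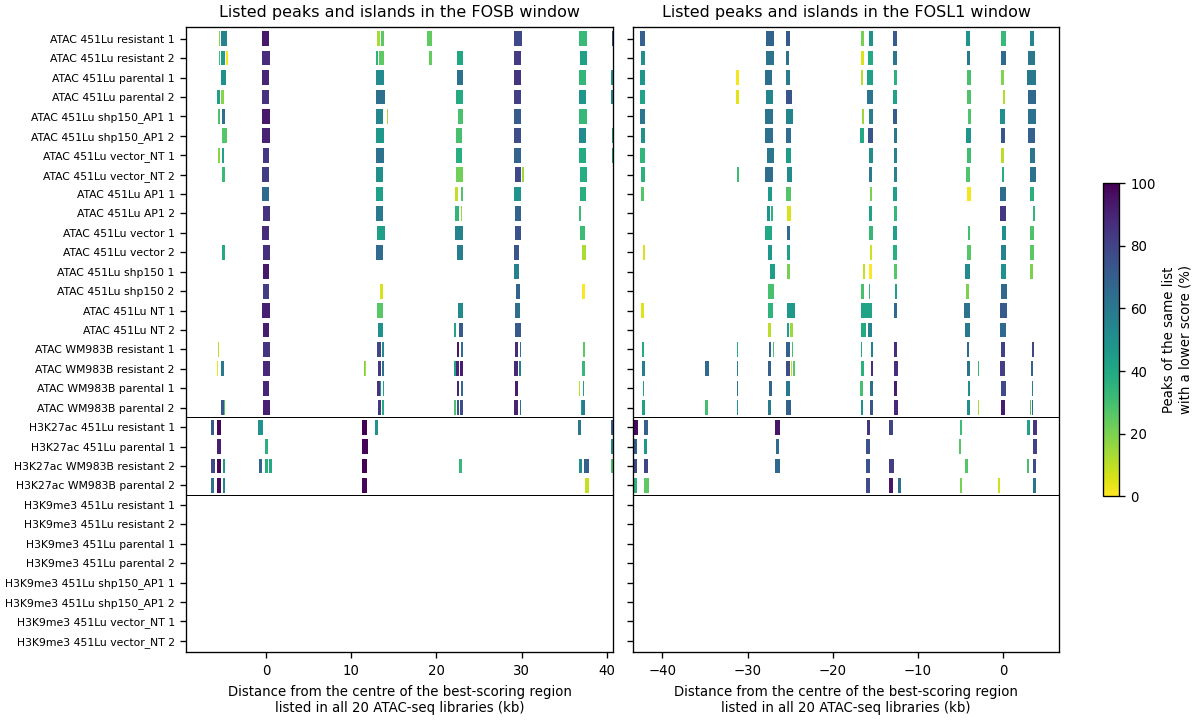
Peaks and islands listed in the FOSB (left) and FOSL1 (right) windows, drawn as for FOS, with x in kb from the centre of the best-scoring region of all 20 ATAC-seq libraries. The darkest H3K27ac peak of the FOSB window lies about 12 kb right of that centre in all 4 H3K27ac rows, and both H3K9me3 blocks are empty.

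Cells with extra c-JUN and c-FOS gained or lost few regions at the 4 loci against vector cells. One of 27 regions was gained and none was lost, beside 1.6% gained and 2.86% lost across the chromosomes. Of the 27, 16 were listed in all 4 libraries, and no share across the chromosomes was taken for this count. Covered bases over the windows were 11023 and 10370 in AP1 and 12025 and 11075 in vector libraries (exact permutation p = 0.333). In the FOS window peaks covered 2373 and 2448 bp in AP1 and 2809 and 2459 bp in vector libraries. Groups did not overlap there, as in 23.2% of 100 kb tiles in that direction, and they overlapped at FOSB, FOSL1 and FOSL2. The gained region was chr14:75774405-75774698 at FOS, with 7.24 and 5.55 in AP1 cells. Both parental 451Lu libraries and all 4 WM983B libraries listed this place too. The files cannot tell reads of an expression construct from reads of the FOS gene itself, and their part in any FOS value of AP1 and shp150_AP1 cells was not tested.

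The hairpin against p150 went with fewer listed regions at these loci, as across the chromosomes. No region of 23 was gained and 3 were lost (13.0%), beside 0.748% gained and 7.51% lost of all regions. The mean of covered bases was below that of NT cells in each window. FOSB had 1280 and 1740 bp in shp150 and 2778 and 2831 bp in NT cells, FOSL2 had 378 and 894 bp in shp150 and 1489 and 1556 bp in NT cells, and FOS had 1720 and 1756 bp in shp150 and 2983 and 2305 bp in NT cells. Groups did not overlap at these 3 genes. The same held, in the same direction, for 44.7% of 50 kb tiles (the width of FOSB), 48.6% of 80 kb tiles (FOSL2) and 50.6% of 100 kb tiles (FOS), so this separation was common across the chromosomes. FOSL1 overlapped, with 3434 and 2503 bp in shp150 and 4901 and 3431 bp in NT cells. The sum was 6852.5 ± 57.3 bp in shp150 and 11137 ± 1529 bp in NT cells (SD, n = 2 each, exact permutation p = 0.333). The shp150 lists were the shortest of the series, with 43913 and 42898 peaks against 55609 and 53419 in NT cells, and with lists of equal length the difference was -3266 bp and 1 region was lost.

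The regions lost with the hairpin were 2 at FOS and 1 at FOSB. At chr19:45981814-45982469 in the FOSB window NT cells scored 10.5 and 13.5, above 51.8% and 72.1% of their lists, and shp150 cells had no peak. This place was listed in 17 of the 20 libraries, and the third that lacked it was resistant 451Lu replicate 1. At FOS the lost regions were chr14:75745240-75745923, with 7.52 and 4.38 in NT cells, and chr14:75768489-75768820, with 5.80 and 5.82.

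With both changes few regions were gained or lost against the control. In shp150_AP1 cells 2 of 42 regions were gained and 1 was lost, beside 5.19% gained and 3.26% lost across the chromosomes. All 4 libraries listed 25 of the 42, again with no share across the chromosomes taken. FOSL1 had 5430 and 5066 bp covered in shp150_AP1 and 4286 and 4540 bp in vector_NT cells. FOS had 5202 and 5529 bp in shp150_AP1 and 6489 and 5662 bp in vector_NT cells. FOSB had 4847 and 4882 bp in shp150_AP1 and 4657 and 4323 bp in vector_NT cells. The groups did not overlap at these 3 genes, with FOSL1 and FOSB higher and FOS lower in shp150_AP1 cells. Of 50 kb tiles 22.0% were separated with shp150_AP1 higher, and of 100 kb tiles 19.8% with shp150_AP1 lower. Over the 4 windows the sums were 19079 and 18831 bp in shp150_AP1 and 19046 and 17742 bp in vector_NT cells (exact permutation p = 0.667), and the mean difference of 561 bp turned to -91.0 bp without vector_NT replicate 2.

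One gained FOS region was seen nowhere else. It lay at chr14:75747611-75748034 with scores of 8.55 and 5.16 in shp150_AP1 cells, and none of the other libraries, those of AP1 cells included, listed it. A second peak close by, chr14:75746592-75746794, was listed in shp150_AP1 replicate 1 alone, at 6.66. The other gain, chr11:65666678-65667081 at FOSL1, scored 5.71 and 9.53 and is part of a wider place listed in all 20 libraries. The lost region was chr14:75774389-75774829 at FOS, with 10.4 and 8.63 in vector_NT cells. It is the place that AP1 cells gained over vector cells. Both parental 451Lu libraries also listed it, at 7.49 and 7.69, and so did resistant 451Lu replicate 1, at 5.72. All 4 WM983B libraries listed it, at 5.02 to 15.8. Among engineered cells it was listed with c-JUN and c-FOS alone and not with the hairpin added. Of the controls, vector_NT cells listed it and vector cells did not. The difference between these comparisons was not tested.

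**Figure D5:**
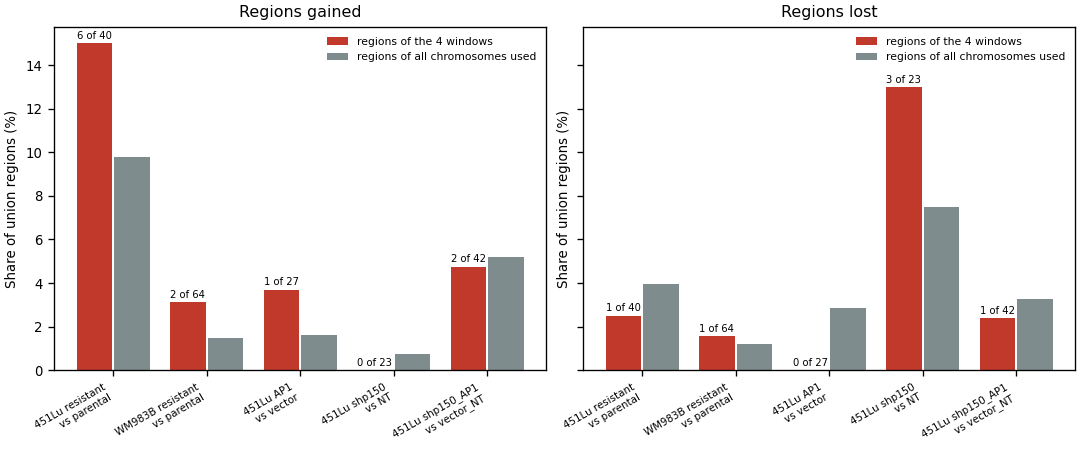
Share of union regions gained (left) and lost (right) in each ATAC-seq comparison, in the 4 windows (red, with the count of regions) and across all chromosomes used (grey). The tallest red bars are the 6 of 40 regions gained in resistant 451Lu cells and the 3 of 23 lost with the p150 hairpin.

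H3K9me3 was listed at FOSL2 and at none of the other members. None of the 8 H3K9me3 libraries listed an island in the FOS, FOSB or FOSL1 window, while all 8 listed one at the far end of the FOSL2 window. Empty windows are common, as 14.4% of 100 kb tiles, 26.3% of 50 kb tiles and 17.7% of 80 kb tiles with an ATAC-seq peak had no island in any library. The FOSL2 islands lay between 28653401 and 28659400 on chromosome 2. Their fold of ChIP over input was 1.80 and 1.71 in resistant cells and 1.61 and 1.86 in parental cells, which overlap. In shp150_AP1 cells it was 1.43 and 3.01, against 2.27 and 2.63 in vector_NT cells, which overlap too. The labels name an input for shp150_AP1 replicate 2 and none for replicate 1, so the input behind the fold of 1.43 is not stated. Resistant replicate 2 and parental replicate 1 each listed a weaker island at the middle of the window, with folds of 1.13 and 1.59. No island of the windows was gained or lost in either comparison. Across the chromosomes 3.03% were gained and 17.8% lost in resistant cells, and 1.86% were gained and 13.9% lost in shp150_AP1 cells. FOSL2 bases covered by islands numbered 4200 and 6200 in resistant and 6200 and 2800 in parental cells (exact permutation p = 1.0).

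The RRR table holds the authors' own comparison in 451Lu, and it names neither its assay nor the group that a positive fold change favours. In the authors' deposited table an interval starting at 28520000 on chromosome 2, which spans the FOSL2 window, had a log2 fold change of 2.47 (SE 0.27, adjusted p = 1.07e-18). It ranked 442 of 1848 in the authors' deposited table by the size of the fold, whatever its sign. Of all intervals in the authors' deposited table, 33.2% had a positive and 41.2% a negative fold change with an adjusted p under 0.05. FOSB lay in an interval of the authors' deposited table with a log2 fold change of 0.80 (SE 0.34, adjusted p = 0.0279). Part of the FOSL1 window was overlapped by an interval of the authors' deposited table with 0.25 (SE 0.26, adjusted p = 0.365). No interval of the authors' deposited table overlapped the FOS window, and the one that starts at its end had 1.16 (SE 0.35, adjusted p = 0.00166). As a description of direction, 15.9% of the ATAC-seq regions inside positive intervals of the authors' deposited table (adjusted p under 0.05) were gained in resistant 451Lu cells and 3.07% were lost. Inside its negative intervals 6.78% were gained and 4.95% were lost. Of all regions across the chromosomes 9.79% were gained and 3.96% were lost in that comparison of resistant and parental 451Lu cells.

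Across the 20 libraries the covered share of each window followed the total bases that a list covered. The Pearson r was 0.97 for FOS, 0.90 for FOSB, 0.83 for FOSL1 and 0.95 for FOSL2. FOSL1 was thus the locus that followed total coverage least closely. The genome tiles most like FOS were chr3:48000001-48100000, chr16:58000001-58100000 and chr12:23900001-24000000 (r of 0.98 each, n = 20). The 3 most like FOSB, led by chr15:85250001-85300000, had r of 0.96. For FOSL1, led by chr5:73500001-73550000, r was 0.92 to 0.94. For FOSL2 it was 0.97, with chr3:194240001-194320000 among them. The points share library and total coverage, so these values describe the lists only.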

How the data were processed

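MACS2, SICER, Picard, deepTools, Bowtie2, STAR 2.5.3 and the build hg19 are named, with no role, in the submitters' processing notes. Whether duplicates were removed, whether reads were shifted for Tn5 and which thresholds were set is not given in the sources used here. Per the deposited files, ATAC-seq and H3K27ac lists hold the peaks of 1 library each with the authors' score, which was used only to describe, rank or filter peaks within a list. The deposited H3K9me3 islands carry counts of ChIP and input reads, a false discovery rate, a p-value and the fold over input, and all listed islands were used. ChIP reads in islands came to 11.5 to 31.1 M per library. In the RRR table all columns are the authors' deposited values, namely a log2 fold change with its standard error, a test score, p-values and a mean normalized count (treated as a signal). Its grid step is 20 kb, and an end was read as the start of the last step.

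Chromosomes 1 to 22 and X were used. Lists of a comparison were merged into union regions, touching intervals were joined, and a region counted as listed where at least 1 bp was covered. Peak lists carry no counts or depth, so no count model was fitted and sequencing depth is unknown for them. Covered bases were compared with exact two-sided permutation tests over libraries. The calls were tested on simulated lists. Python 3.11.15, numpy 2.4.6, pandas 2.3.3, scipy 1.17.1 and matplotlib 3.10.9 were used. Alternatives were a cover of 50%, a score of 5 or more, lists of equal length, a union of all 20 lists, scaling by total coverage, limits on the islands, exchange within replicate numbers and leaving out each library.

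The members, windows and lists were chosen with earlier results of these data known. Named regions are those gained or lost in any comparison and the best-scoring region of each window, and other regions named were chosen after their values were seen. Likeness was the Pearson correlation of covered shares with genome tiles, 3 per gene. No hg19 annotation was used here, so peaks were not assigned to promoters, exons or introns, and the counts planned for other AP-1 genes, ERK-induced genes and cell type markers near gene starts were not run. The labelled cell type was thus not checked against its markers. Promoters were matched by symbol for 3 of the 4 members, FOS, FOSB and FOSL2, and FOSL1 is only named. Of 47 samples, 32 had a file and were used. The 15 others were not analysed here by themselves.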

Additional observations from a re-analysis of the deposited data

How the results depend on the processing

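Of 142 values under an alternative, 43 counts stayed within 1.5 times the reported count, 47 differences in bases kept their sign, 46 values moved and 6 reversed. Of the 47, 13 changed in size by over 1.5 times. They include the covered difference in shp150_AP1 cells, at 1365.5 bp with a score of 5 or more and 1086 bp with lists of equal length against 561 bp. They also include bases under islands in shp150_AP1 cells, at -1800 bp with a fold of 2 or more against -300 bp. The other 10 come from leaving out 1 library. Values scaled by total coverage are in another unit and are not among the 13. Scaled, the covered difference was 30.3 bp per Mb of the list in resistant 451Lu and 18.5 in resistant WM983B cells. It was -1.5 in AP1 cells, -59.6 in shp150 cells and 5.5 in shp150_AP1 cells. The exact permutation p rose above the unscaled 0.333 in AP1 cells and 0.667 in shp150_AP1 cells. It stayed at 0.333 in resistant 451Lu and shp150 cells. With 2 libraries a group, a count of 0 to 3 regions moves easily, and the cause of each move was not tested. At a cover of 50%, resistant 451Lu cells had 10 gained and 2 lost regions, resistant WM983B cells 0 and 0, and shp150 cells lost 8. At a score of 5 or more, resistant 451Lu cells lost 0, resistant WM983B cells gained 0 and lost 0, and AP1 cells lost 1. With lists of equal length, resistant 451Lu cells lost 2, resistant WM983B cells gained 1 and shp150 cells lost 1. With the union of all 20 lists, resistant WM983B cells gained 1 and shp150_AP1 cells gained 1. Within WM983B number 1 alone 9 regions were gained and 6 lost, and within number 2 alone 11 and 5, an alternative chosen after seeing the data.

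Leaving out 1 library at a time gave these ranges. In resistant 451Lu cells 7 to 8 regions were gained and 1 to 3 lost, with 3 lost without parental replicate 1 or resistant replicate 2. In resistant WM983B cells 3 to 10 were gained (10 without resistant replicate 1) and 2 to 4 lost (4 without parental replicate 2). AP1 cells gained 1 to 2 (2 without vector replicate 2) and lost 1 to 2 (2 without either vector library). Cells with shp150 gained 0 to 2 (2 without shp150 replicate 1) and lost 4 to 6 (6 without NT replicate 1). Cells with shp150_AP1 gained 2 to 4 (4 without vector_NT replicate 1 or shp150_AP1 replicate 2) and lost 2 to 6 (6 without vector_NT replicate 1). Covered bases differed by -1039.5 bp (without resistant replicate 2) to 4025.5 bp (without resistant replicate 1) in resistant WM983B cells. They differed by -1328.5 bp (without vector replicate 2) to -378.5 bp (without vector replicate 1) in AP1 cells, and by -91.0 bp (without vector_NT replicate 2) to 1213 bp (without vector_NT replicate 1) in shp150_AP1 cells. Bases under H3K9me3 islands differed by 700 bp between resistant and parental cells, by -1000 bp (without parental replicate 2) to 2400 bp (without parental replicate 1) with 1 library left out, by -900 bp at a false discovery rate of 0.01 or less and by 0 bp at a fold of 2 or more. In shp150_AP1 cells they differed by -500 bp (without vector_NT replicate 1) to -100 bp (without vector_NT replicate 2).

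Replicate numbers were not stated to pair libraries. With the replicate number as a block, the covered difference in resistant 451Lu cells stayed at 2733 bp, with an exact permutation p = 0.5, the smallest that the block allows. The block was run for bases only, where it changed no difference, and not for counts of gained or lost regions. The deviations of same-numbered libraries correlated at 0.252 in WM983B and between -0.009 and 0.001 in the 451Lu comparisons. Unknown depth and list length limit every statement on a region that a list lacks.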
